A study of Enchytraeus albidus with 42 samples.

Results

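Carbendazim EC10, the lowest of the 4 carbendazim concentrations tested, was compared with its solvent control in the soil worm Enchytraeus albidus, and the comparison rests on 6 of the 42 arrays of the study, 3 of each group. The arrays were chosen by their labels alone, and EC10 is the concentration estimated to reduce reproduction by 10%. Besides this fungicide the study tested dimethoate, an insecticide, and atrazine, a herbicide, each at EC10, EC20, EC50 and EC90, and with a water control and an acetone control it comprised 14 groups of 3 arrays. The carbendazim EC10 worms spent 2 days at 20 °C in soil into which the fungicide was carried by acetone, and the solvent control worms were kept for the same time in soil that had received acetone only, so that acetone was shared by both groups. Adults with a developed clitellum were kept in vessels of 25 g of soil, for which the sample descriptions and the study's methods give different numbers of worms, and each array held RNA of whole worms from 1 of 3 biological replicates. The arrays thus measured pooled whole animals, in which fewer cells of a type and less RNA per cell cannot be told apart.

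Carbendazim is a benzimidazole fungicide known to bind beta tubulin and to hinder the assembly of microtubules, the tubes of alpha and beta tubulin that form the mitotic spindle and the tracks of intracellular transport. Stathmin binds free tubulin and destabilises microtubules, t-complex proteins fold newly made tubulin and actin, and intermediate filaments and actin make up the rest of the cytoskeleton. Heat shock protein 90 is a chaperone of signalling proteins and a common marker of stress. In annelids most of the body wall is muscle, whose contraction depends on myosin, actin, troponin and calcium-binding proteins.

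Each array carried 15208 spots that were not controls, for 1035 transcripts with 14 to 15 spots of a single probe. On the 6 arrays 81.8% to 87.9% of the transcripts were well above background and 2.8% to 5.51% were saturated. Whole-worm RNA was present on all 6 arrays as judged by muscle actin and both extracellular haemoglobin transcripts, which were well above background. Correlations were 0.989 to 0.993 among the treated arrays, 0.985 to 0.989 among the solvent arrays and 0.98 to 0.991 between them. The 3 treated arrays lay on slide 8, scanned once together with the 3 carbendazim EC20 arrays and 1 dimethoate EC20 array, whereas the solvent arrays lay on slides 3, 4 and 5, so slide and treatment cannot be told apart in this comparison. The water control arrays lay on slides 1 and 2 and were scanned on another day than either group. Slide and day therefore enter each comparison with the water control below. Elsewhere in the study a pair of dimethoate arrays (EC10 replicate 1 and EC20 replicate 2) deviated from their groups, and they enter the spread that all groups share in the fit. Levels below are log2 intensities after a median shift between arrays, changes are log2 differences of treated minus solvent control, and a transcript is called where limma's adjusted p was under 0.05.

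Of 1035 transcripts 2 were called (0.193%), both without a protein name, and both fell in the worms exposed to carbendazim EC10, and none was called higher. The sequence Ealb_Pest_P5_A2_T7_2175153 had levels of 6.65, 6.19 and 6.18 on the solvent arrays and of 4.45, 3.93 and 4.65 on the treated arrays. All treated arrays lay far below all solvent arrays, and the level fell by 2.00 (SE 0.30), to 25.0% of the solvent control (adjusted p = 0.000167). P3_B9_T7_1329712 had levels of 6.06, 5.84 and 6.75 without and of 5.39, 5.46 and 5.17 with the fungicide. Here too the groups did not overlap, and the level fell by 0.87 (SE 0.18), to 54.5% of the solvent control (adjusted p = 0.0150). Neither sequence could be given a function from the sources used.

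Both called transcripts had their lowest mean of the 14 groups in carbendazim EC10, and carbendazim EC20 came next for each. The EC10 arrays that gave the calls also enter this rank, and the EC20 arrays shared their slide. For Ealb_Pest_P5_A2_T7_2175153 the mean was 4.34 ± 0.37 at EC10 and 4.71 ± 0.22 at EC20, while it was 5.51 ± 0.12 at EC50 and 5.35 ± 0.35 at EC90 (SD, n = 3). Its solvent control mean, 6.34 ± 0.27, was the highest of all groups, while the water control had 5.26 ± 0.35. Against the water control the difference at EC10 was -0.92 and was not called (adjusted p = 0.210). For P3_B9_T7_1329712 the means were 5.34 ± 0.15 at EC10 and 5.63 to 5.66 at the higher concentrations, and the solvent and water controls had the same mean of 6.21. It was called against the water control as well, on the same treated arrays, with a difference of -0.87 (adjusted p = 0.0248).

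**Figure D1:**
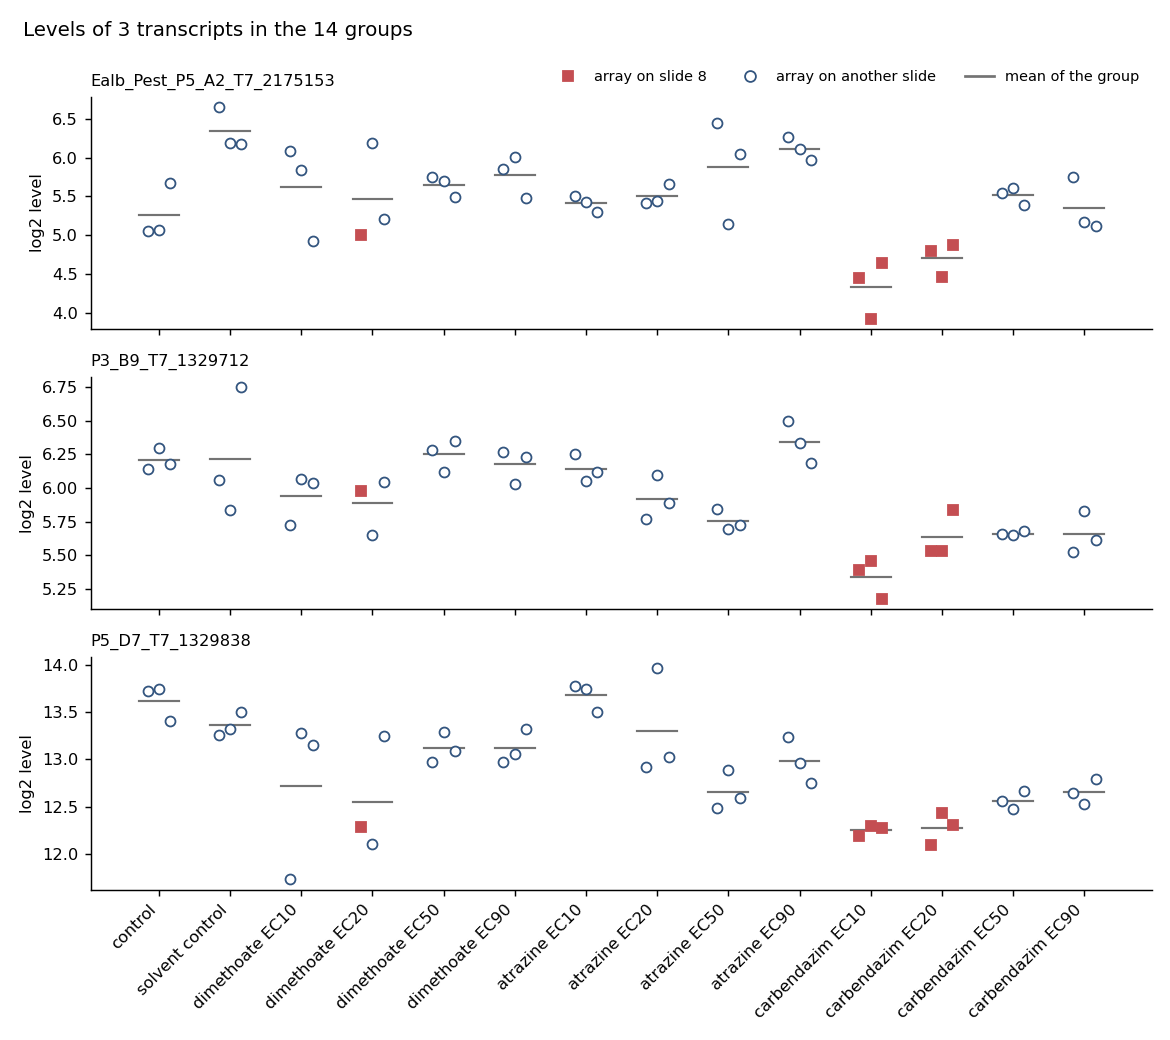
Log2 levels (y axis) of 3 transcripts without a protein name on each of 42 arrays, by group (x axis, 14 groups of 3); grey lines are group means and red squares are the arrays on slide 8. Carbendazim EC10 has the lowest mean of all groups in each panel, at 4.34, 5.34 and 12.25.

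The dimethoate EC20 array that shared slide 8 is the only one there without carbendazim. It had 5.00 for Ealb_Pest_P5_A2_T7_2175153, against 6.18 and 5.21 on the other 2 arrays of its group (the first of them the deviating array), and 5.98 for P3_B9_T7_1329712, against 5.65 and 6.05. For the first transcript it lay below both other arrays of its group, with a difference of -0.69 from their mean, and for the other it lay between them. With the slide as a fixed block the values were -1.28 and -0.66 and neither was called (adjusted p = 0.999 for both). In that fit slide 8 was linked to the other slides only through this dimethoate array and the other 2 of its group. Values with the slide block, here and below, rest on that link wherever EC10 is set against arrays of other slides. They cannot tell slide from treatment, and the part of the slide in the change was not tested. The call of P3_B9_T7_1329712 was also lost without solvent control replicate 3 (-0.61, adjusted p = 0.0976), without treated replicate 1 (adjusted p = 0.0617) or without treated replicate 3 (adjusted p = 0.241). That of Ealb_Pest_P5_A2_T7_2175153 held without each of the 6 arrays in turn, with values between -2.15 and -1.79.

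Below the threshold for a call, 111 transcripts (10.7%) had an unadjusted limma p under 0.05, 48 of them with higher levels (4.64%) and 63 with lower levels (6.09%) in the treated worms. Some of the lower ones were too bright to be measured. On all 6 arrays 24 transcripts were saturated, with changes between -0.65 and -0.61, and the shifts that aligned the arrays themselves differed by -0.63 on average between the treated and the solvent arrays. These made up 23 of the 63. With the 60 transcripts that were saturated on any of the 6 arrays left out, 48 had higher and 31 had lower levels at the same unadjusted threshold of the fit on all transcripts, and both calls held. The 110 transcripts that were not well above background in either group had a median of -0.27, against 0.03 over all transcripts. The plot of change by level shows both ends of the range.

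**Figure D2:**
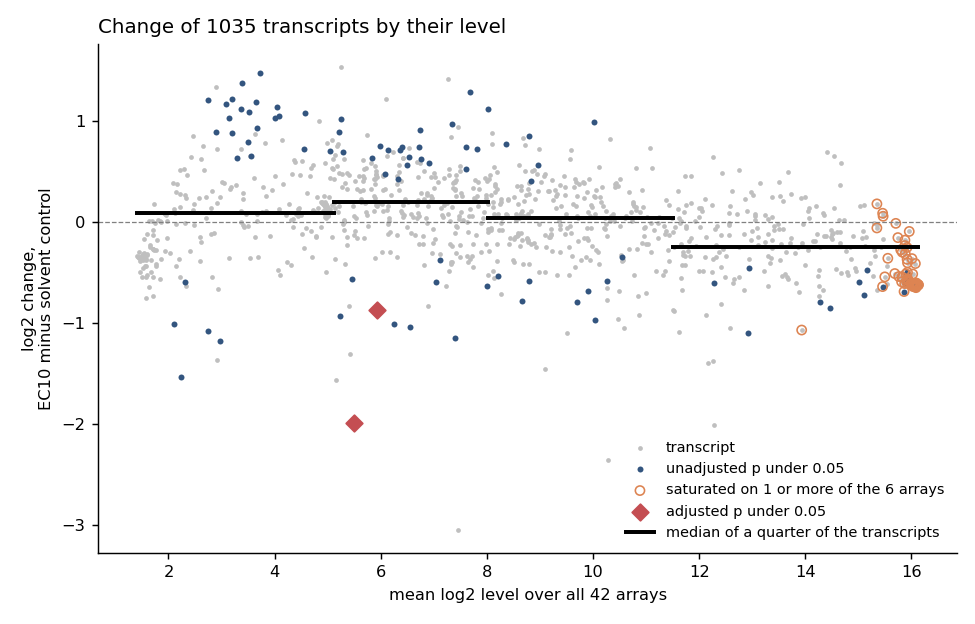
Log2 change in carbendazim EC10 against the solvent control (y axis) of 1035 transcripts by their mean log2 level over 42 arrays (x axis); black lines are medians of 4 sets of transcripts by level and open orange circles are transcripts saturated on 1 or more of the 6 arrays. The medians of the sets are 0.09, 0.19, 0.04 and -0.26 from low to high level, and 24 saturated transcripts form a dense group near -0.63.

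The direction of change went with the level of the transcript. Of the 259 transcripts with the highest levels 0 were higher and 40 lower at unadjusted p under 0.05, whereas of the 259 with the lowest levels 21 were higher and 5 lower, and of the next 259 22 were higher and 10 lower. Without saturated transcripts the brightest set still had 0 higher and 8 lower, with a median change of -0.18. This trend depended on the scaling. Quantile normalization gives all arrays the same distribution and so takes out such a trend by construction, with a median of 0.01 in the brightest set. After normexp background correction the medians were -0.24, 0.10, 0.29 and 0.10 from low to high level, so that a different trend with level remained. Its part in the values of single transcripts was not tested, and levels of dim and of bright transcripts are given below with their scaling alternatives where these turn the sign. Groups did not overlap for 219 transcripts (21.2%), 126 higher (12.2%) and 93 lower (8.99%).

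None of the 3 tubulin transcripts was called, and 1 of them had an unadjusted p under 0.05. Tubulin beta-2b chain-like (EAC00485), a subunit of the microtubule wall, had 6.79, 6.33 and 6.67 in the solvent control and 7.28, 7.17 and 7.08 at EC10. The groups did not overlap, and the difference was 0.58 (SE 0.27, unadjusted p = 0.0373, adjusted p = 0.422). Tubulin alpha chain (EAC00175) had 8.28, 8.21 and 8.43 in the controls and 9.50, 8.61 and 8.50 with carbendazim, again without overlap. Its difference of 0.56 (SE 0.40, adjusted p = 0.679) was 0.24 without treated replicate 1, the highest array. Beta tubulin (EAC00377), from the protein family that carbendazim binds, had 9.76, 10.21 and 10.60 against 10.53, 10.70 and 10.50. Those groups overlapped, and the difference of 0.39 (SE 0.31, adjusted p = 0.712) was 0.17 without solvent control replicate 1 and 0.59 without replicate 3.

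Stathmin 1 (EAC00992), which takes up free tubulin, was the one microtubule protein whose treated mean lay below the solvent mean. Its levels of 7.26, 7.22 and 8.05 in the solvent control overlapped with 7.19, 7.25 and 6.84 at EC10, and the difference was -0.41 (SE 0.24, adjusted p = 0.570). Without solvent control replicate 3, the highest array, it was -0.14. Tektin 2 (EAC01050), a filament protein of cilia and sperm tails, was not well above background on any solvent array and on 1 treated array only, with 2.15, 2.03 and 2.34 against 2.55, 2.45 and 3.78. Of the 5 microtubule proteins 3 had non-overlapping higher levels, where 57 of the 225 named transcripts and 12.2% of all transcripts did. Their median difference was 0.56, against 0.04 for the named transcripts and 0.03 for all. Against the water control the median of these proteins was 0.02, and the solvent control itself had a median of -0.19 against it. Such medians can fall on different members and do not add up.

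**Figure D3:**
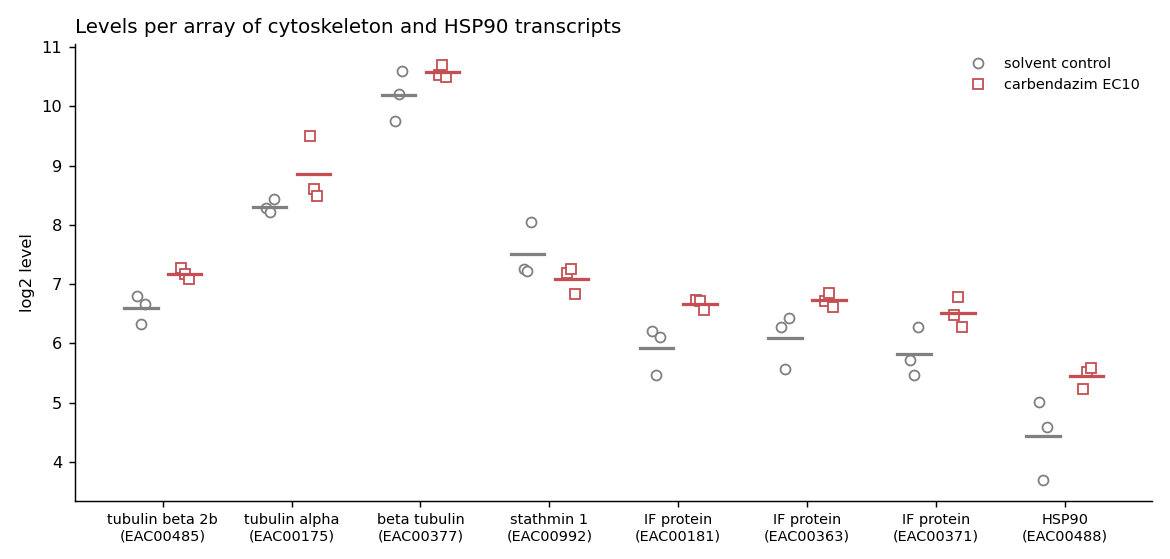
Log2 levels (y axis) of microtubule and intermediate filament (IF) transcripts and of heat shock protein 90 (x axis) on the 3 solvent control (circles) and the 3 carbendazim EC10 arrays (squares); lines are means. The treated arrays lie above all solvent arrays except for beta tubulin and stathmin 1, whose groups overlap.

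Intermediate filament proteins, the ropes that give cells their mechanical strength, had the highest median difference of the 15 lists, 0.71, with 4 of 4 members higher without overlap and 3 of them at unadjusted p under 0.05, but 0 called. Of the 225 named transcripts, which the study chose on these arrays, 57 were higher without overlap and 20 higher at that threshold. Among all transcripts the shares were 12.2% and 4.64%. The rank of the list depended on the scaling, as the microtubule list had the higher median after quantile normalization (0.47 against 0.45) and after normexp (0.42 against 0.33). It also depended on the control, as the median of the intermediate filament list was 0.04 against the water control, below which the solvent control itself lay with a median of -0.65. EAC00181 had levels of 6.21, 5.47 and 6.12 in the solvent control and of 6.73, 6.72 and 6.56 at EC10, a difference of 0.74 (SE 0.33, adjusted p = 0.422). EAC00363 had 6.27, 5.56 and 6.42 against 6.72, 6.86 and 6.61 (0.64, SE 0.31, adjusted p = 0.461, and 0.38 without solvent control replicate 2). In both, solvent control replicate 2 was the lowest array and the treated arrays lay close together. The cytoplasmic form EAC00371 had 5.72, 5.46 and 6.27 against 6.47, 6.78 and 6.28, so that its groups all but touched (0.69, SE 0.46, adjusted p = 0.640). EAC00999 was not well above background in the solvent control, at 3.21, 2.81 and 2.97, and was so on 1 treated array, with 3.87, 3.47 and 4.00; its difference turned to -0.18 after normexp background correction.

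Of the 28 contractile muscle proteins 0 were called, and 18 had positive and 10 negative differences. Without overlap 14 had higher levels and 2 had lower ones, where among the 225 named transcripts 57 had higher and 20 lower levels and among all transcripts 12.2% and 8.99%. The median difference was 0.31, with 0.23 after quantile normalization and 0.30 after normexp, and it was 0.09 against the water control. Myosin alkali light chain 1 (EAC00541), part of the motor head of myosin, had 8.59, 8.74 and 8.67 in the solvent control and 9.23, 9.27 and 9.17 at EC10. Both groups were tight, and the difference was 0.56 (SE 0.21, unadjusted p = 0.0139, adjusted p = 0.387), whereas a different transcript of the same name (EAC00378) had -0.37, with groups that overlapped. The troponin T transcript EAC00340, of the calcium switch of the thin filament, differed by 0.59, and the 3 transcripts of the calcium-binding protein scbp3 by 0.40, 0.57 and 0.58, none with an unadjusted p under 0.05.

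Differences below 0 were found for other muscle transcripts, none of them called. Muscle actin (EAC00332), the core of the thin filament, had 14.98, 15.43 and 14.74 in the controls and 14.44, 14.22 and 13.93 in the treated worms. The groups did not overlap, with a difference of -0.85 (SE 0.35, unadjusted p = 0.0220, adjusted p = 0.422). The transcript named light chain regulatory (EAC00558) had 8.62, 9.16 and 9.34 against 8.72, 8.35 and 8.27, which overlapped (-0.59, SE 0.23, adjusted p = 0.387). Myosin regulatory light chain (EAC00259) had a difference of -0.62 without overlap (adjusted p = 0.535). Among the 23 actin and actin-binding transcripts the median was 0.06, with differences from -0.84 to 0.83. Only thymosin isoform 2 (EAC00210), which sequesters free actin, had an unadjusted p under 0.05 there. Its levels were 10.20, 11.05 and 10.53 in the solvent control and 10.09, 10.08 and 9.83 at EC10 (-0.59, SE 0.29, adjusted p = 0.461, and -0.36 without solvent control replicate 2), and the sign turned to 0.20 with the slide as a block.

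**Figure D4:**
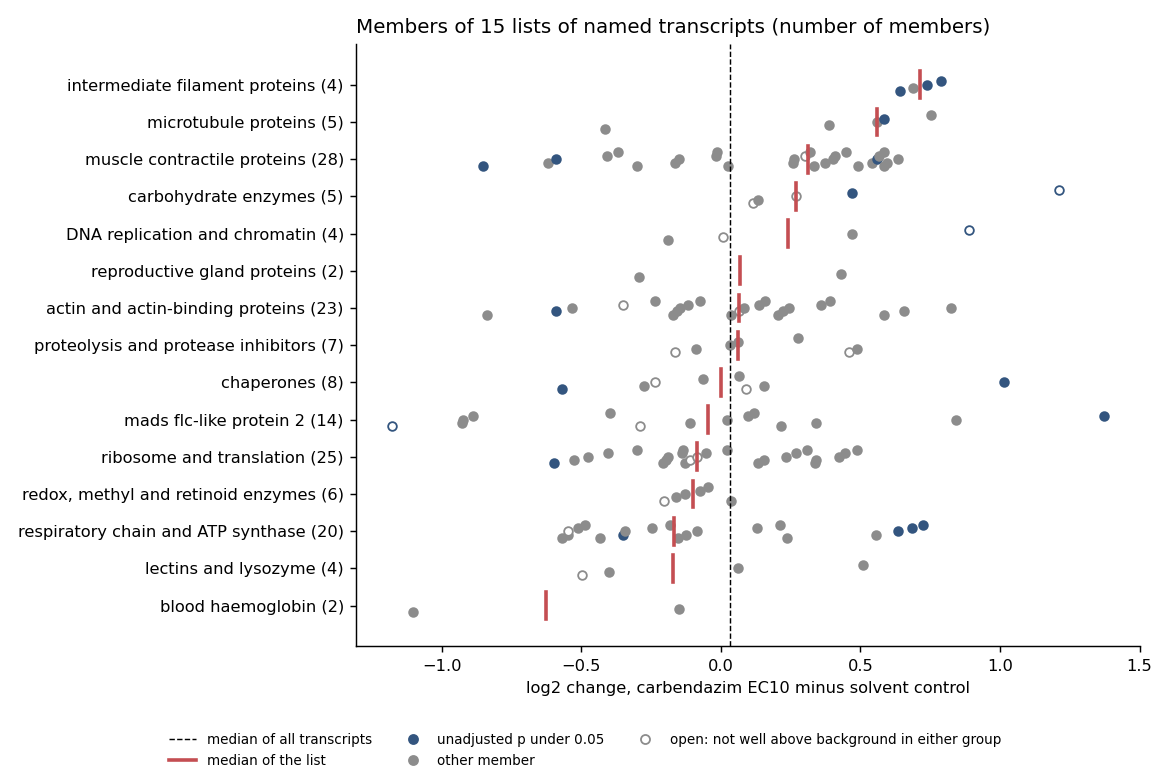
Log2 change in carbendazim EC10 against the solvent control (x axis) of the members of 15 lists of named transcripts (y axis, number of members in brackets); red lines are list medians and the dashed line is the median of all 1035 transcripts. Intermediate filament proteins have the highest median under this scaling, 0.71 (after quantile normalization and after normexp the microtubule proteins have it), and the 2 blood haemoglobin transcripts the lowest, -0.63.

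Heat shock protein 90 (EAC00488) had levels of 5.01, 3.69 and 4.59 in the solvent control, the second of these not well above background, and of 5.24, 5.52 and 5.58 at EC10. The difference was the largest of the 8 chaperones at 1.01 (SE 0.37, unadjusted p = 0.00983, adjusted p = 0.362), but it was 0.64 without solvent control replicate 2 and -0.10 when outlier spots were kept. T-complex protein 1 subunit beta (EAC00473), a tubulin and actin folding protein, had 5.61, 5.83 and 5.75 against 5.14, 5.06 and 5.28. The groups did not overlap (-0.57, SE 0.26, adjusted p = 0.422), and with the slide as a block the sign turned to 0.20. The heat shock cognate transcript EAC00316 differed by 0.15 and the mitochondrial co-chaperonin EAC00276 by -0.28, and the median of the list was 0.00.

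In the respiratory chain and ATP synthase the median of 20 transcripts was -0.17, and it turned to 0.06 after normexp. None was called, and 7 had positive and 13 negative differences. Cytochrome c oxidase subunit VIa (EAC00356), of the enzyme that passes electrons to oxygen, had 5.43, 5.06 and 5.56 in the controls and 5.82, 6.15 and 5.98 at EC10 (0.63, SE 0.21, unadjusted p = 0.00574, adjusted p = 0.313), while a different subunit VIa transcript (EAC00068) had -0.18 with overlap. The gamma subunit of ATP synthase (EAC00103), its rotating shaft, had 4.85, 4.74 and 5.00 against 5.49, 5.53 and 5.64 (0.69, SE 0.27, adjusted p = 0.387). Neither pair of groups overlapped. A NADH:ubiquinone oxidoreductase transcript (EAC00204), of complex I, had 4.23, 3.78 and 4.28 against 4.78, 4.69 and 5.00 (0.72, SE 0.32, adjusted p = 0.422), but -0.01 after normexp. The ESSS subunit of the same complex (EAC00388) had 10.68, 10.76 and 10.93 against 10.44, 10.56 and 10.31, also without overlap and in the other direction (-0.35, SE 0.14, adjusted p = 0.391). Both transcripts of the e chain of ATP synthase, EAC00665 and EAC00748, had lower levels without overlap, with differences of -0.57 and -0.55 (adjusted p = 0.573 and 0.590).

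Ribosomal and translation transcripts showed no common direction, as the median of 25 was -0.09 and turned to 0.08 after quantile normalization. Ribosomal protein S16 (EAC00298), of the small subunit, had 15.57, 15.55 and 15.25 in the solvent control and 14.85, 14.86 and 14.86 at EC10. The groups did not overlap (-0.60, SE 0.23, unadjusted p = 0.0154, adjusted p = 0.387), while a different transcript of the same protein (EAC00200) differed by 0.02. The 2 blood haemoglobin transcripts, of the giant oxygen carrier dissolved in annelid blood, differed by -1.10 for the linker L4 (EAC00261) and by -0.15 for the other (EAC00421), without a call. Glyceraldehyde-3-phosphate dehydrogenase (EAC00903), of glycolysis, had 5.67, 5.90 and 6.14 against 6.48, 6.23 and 6.40 (0.47, SE 0.23, adjusted p = 0.459). Transketolase (EAC00207) was not well above background on any of the 6 arrays. The same held for glucan endo-beta-glucosidase (EAC00265, Ealb_Met_P2_E8_SP6_2090292), which the study measured by qPCR. Its difference was 0.12 (SE 0.30, adjusted p = 0.928).

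Among other named transcripts, 3 carry names of the cysteine-rich membrane protein CRIM1 and none was called. The chordin-like transcript EAC00042 had 4.66, 3.78 and 4.42 in the controls and 5.44, 5.34 and 5.29 with carbendazim (1.07, SE 0.37, adjusted p = 0.318), and the cysteine-rich motor neuron 1 precursor EAC00472 had 5.55, 4.62 and 5.23 against 6.00, 6.07 and 6.00 (0.89, SE 0.38, adjusted p = 0.422). The third, cysteine-rich repeat-containing protein crim1 (EAC00415), had a difference of -0.74 (SE 0.55, adjusted p = 0.684), without overlap. Solvent control replicate 2 was the lowest array in the first pair, as it was in the intermediate filament proteins and heat shock protein 90. The amino acid transport protein rBAT (EAC00636) had 8.85, 8.44 and 8.93 against 9.11, 9.13 and 9.19 (0.41, SE 0.18, adjusted p = 0.422), with 0.26 without solvent control replicate 2 and -0.16 with the slide as a block. The tyrosine kinase named fgr (EAC00011) had 8.89, 8.57 and 8.07 against 8.04, 8.05 and 7.83 (-0.53, SE 0.23, adjusted p = 0.422). In that transcript solvent control replicate 3 lay next to the treated arrays, and without replicate 1 the difference was -0.34. The 14 transcripts named mads flc-like protein 2 had differences from -1.18 to 1.37, with both extremes in transcripts near background, and a median of -0.05. The medians of the remaining lists were 0.06 for 7 transcripts of proteolysis, 0.27 for 5 carbohydrate enzymes, -0.17 for 4 lectins and lysozyme, 0.24 for 4 of DNA replication and chromatin, 0.07 for 2 reproductive gland proteins and -0.10 for 6 redox, methyl and retinoid enzymes, without a call, and those for carbohydrate enzymes, DNA replication, reproductive gland proteins and redox enzymes changed sign after normexp. In all, 20 of the 225 named transcripts, which the study chose on these same arrays, had higher and 8 had lower levels at unadjusted p under 0.05, where 4.64% and 6.09% of all transcripts did.

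Unnamed transcripts with larger signals followed the 2 called ones. Ealb_Pest_P1_F11_SP6_2090898 had 8.26, 8.51 and 7.98 in the solvent control and 7.12, 7.20 and 6.97 at EC10, a difference of -1.16 (SE 0.27, adjusted p = 0.0618). Its direction turned with the control, as the solvent control was itself higher than the water control by 1.54 (adjusted p = 0.00318) and EC10 lay above the water control by 0.38. Ealb_Met_P4_C4_SP6_2090061 had 7.36, 6.42 and 7.24 against 6.17, 5.81 and 5.92 (-1.04, SE 0.26, adjusted p = 0.106), and it passed the threshold without solvent control replicate 2 (-1.33, adjusted p = 0.0116). P5_D7_T7_1329838 had 13.25, 13.32 and 13.50 against 12.19, 12.29 and 12.28 (-1.11, SE 0.29, adjusted p = 0.107). P4_C2_SP6_1371456 had 14.59, 14.49 and 14.68 against 13.75, 13.79 and 13.84 (-0.80, SE 0.24, adjusted p = 0.226). In the latter pair the arrays of a group lay close together and far from those of the other group, and both were also called lower against the water control, with differences of -1.37 and -1.02 (adjusted p = 0.0248 and 0.0494). On slide 8 the dimethoate EC20 array had 12.28 for P5_D7_T7_1329838, as low as the carbendazim arrays there. The rest of its group, on slide 1, had 12.11 (the deviating array) and 13.25. With the slide as a block the difference of P5_D7_T7_1329838 from the solvent control turned to 0.24. For P4_C2_SP6_1371456 the same array had 13.87, near the carbendazim arrays there, and the rest of its group 13.57 (the deviating array) and 14.52. Across the alternatives the difference of P4_C2_SP6_1371456 from the solvent control ranged from -0.85 to -0.07. In the opposite direction Contig113 had 6.29, 5.96 and 6.63 against 6.89, 7.04 and 6.81 (0.62, SE 0.19, adjusted p = 0.268), and its difference from the water control was -0.03.

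How many transcripts were called depended on the spread taken from other groups. Without the 2 deviating dimethoate arrays the median residual SD went from 0.413 to 0.32 and 44 transcripts were called (4.25%), 20 higher and 24 lower, 4 of the lower ones saturated on 1 to 4 of the 6 arrays. The 44 included both transcripts above and 19 with a name. Higher among them were the intermediate filament proteins EAC00181, EAC00371 and EAC00999, heat shock protein 90 (adjusted p = 0.0283), 2 actins and the ATP synthase gamma subunit. Among the lower ones were muscle actin, cytoplasmic actin (EAC00455), thymosin isoform 2, myosin regulatory light chain and ribosomal proteins S7 and S16. Of the 23 actin and actin-binding transcripts 2 were thus called higher and 2 lower. Adding quantile normalization left 23 calls (2.22%), of which 15 were shared. None of the 23 was an intermediate filament protein, heat shock protein 90 or any of the lower transcripts just named. The actin and actin-binding transcripts then had 3 called higher and 0 lower. In the brightest set of 259 the calls went from 2 higher and 15 lower to 7 higher and 1 lower, so their direction depended on the scaling. Adding the slide as a block, with the same dimethoate array as the only link of slide 8, left 0 calls and 26 transcripts at unadjusted limma p under 0.05.

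The other carbendazim concentrations were compared with EC10 directly, so that control arrays entered only the shared spread and not the differences. Carbendazim EC10 and EC20 lay on the same slide and scan, and 0 transcripts were called between them (0%), with 7 at unadjusted limma p under 0.05 (0.676%) and a smallest adjusted p of 0.999. Between EC10 and EC50 0 were called (0%), 19 at the unadjusted threshold (1.84%), with a smallest adjusted p of 0.369. Against EC90 38 transcripts were called (3.67%), 19 higher and 19 lower at EC10. EC90 lay on other slides than EC10, and with the slide as a fixed block, which has the same single link to slide 8, 0 were called. Leaving out single arrays gave 6 to 21 calls, the fewest without EC90 replicate 3.

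The transcripts with the smallest p between EC10 and EC90 had EC10 levels that overlapped with the solvent control. Aquaporin 1 (EAC00867), a water channel, had 9.60, 9.86 and 9.32 at EC10 and 9.77, 10.32 and 10.04 in the solvent control, which overlapped, and its log2 difference between EC10 and EC90 was -1.58 (adjusted p = 0.000692). Peptidase inhibitor 16 (EAC00257) had 6.71, 7.38 and 6.54 at EC10, which overlapped with 6.74, 6.51 and 7.20 in the solvent control, and differed from EC90 by 2.38 (adjusted p = 0.00203). The unnamed P2_A9_T7_1328949 (2.29) and P5_E4_T7_1329817 (1.56) were likewise higher at EC10 than at EC90, and their EC10 and solvent levels overlapped. Stathmin 1 was higher at EC10 than at EC90 by 0.89 (adjusted p = 0.0345), and the light chain regulatory transcript was lower, with a log2 difference of -0.80 (adjusted p = 0.0385).

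Set against the same 3 solvent arrays, and therefore not independent, the 4 concentrations gave these values side by side. EC10 and EC20 lay on slide 8, EC50 on slide 5 with solvent control replicate 1, and EC90 on slides 5 and 7. Where EC10 or EC20 is set beside EC50 or EC90, slide and concentration therefore cannot be told apart. Stathmin 1 had differences of -0.41 and -0.42 at EC10 and EC20 and of -1.10 and -1.30 at EC50 and EC90, of which the latter were called (adjusted p = 0.0247 and 0.000989). In order of concentration Ealb_Pest_P5_A2_T7_2175153 had -2.00, -1.63, -0.82 and -0.99, and was called at EC10 and EC20, the only call at EC20 (0.0966%), where 0.386% of all transcripts were called at EC50 and 3.77% at EC90. Heat shock protein 90 had 1.01, 1.07, 0.81 and 1.22, and the intermediate filament protein EAC00181 had 0.74, 0.72, 0.78 and 0.74, without a call at any concentration. Tubulin beta-2b had 0.58, 0.61, 0.48 and 0.34, while beta tubulin had 0.39, 0.18, 0.48 and 0.92. Between EC10 and EC90 the differences of these other than stathmin 1 were not called.

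**Figure D5:**
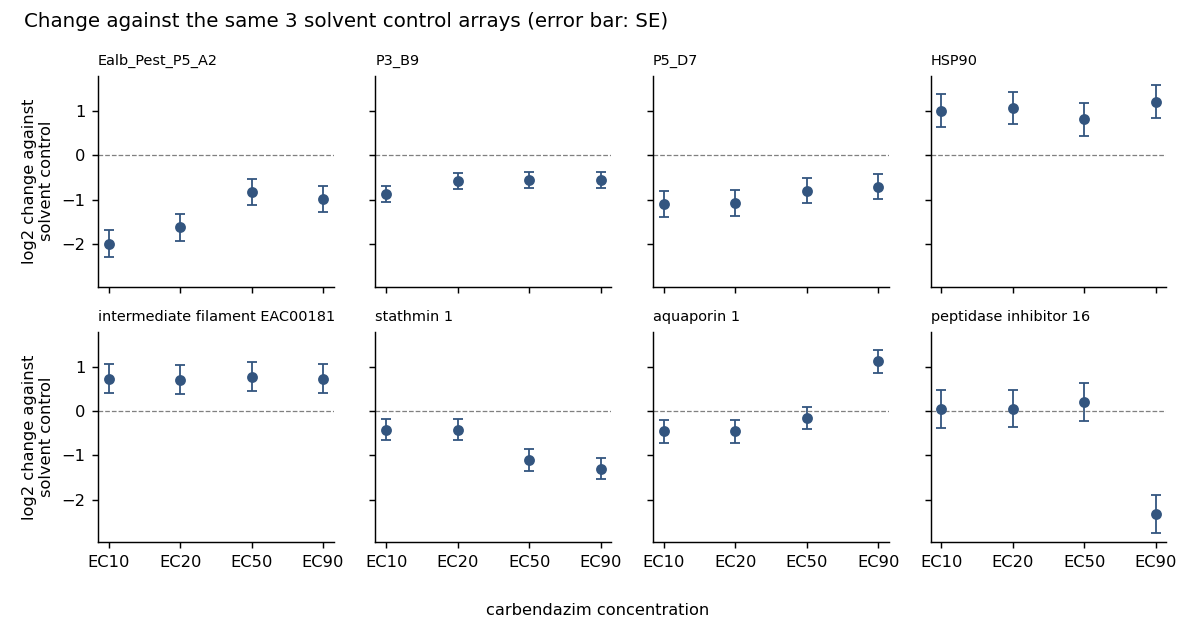
Log2 change against the same 3 solvent control arrays (y axis) of 8 transcripts at carbendazim EC10, EC20, EC50 and EC90 (x axis), with standard errors as bars. Stathmin 1 lies at -0.41 at EC10 and at -1.30 at EC90, and peptidase inhibitor 16 and aquaporin 1 lie at -2.32 and 1.13 at EC90 but at 0.06 and -0.45 at EC10. EC10 and EC20 share a slide that holds no EC50 or EC90 array.

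Atrazine EC10, dissolved in the same solvent and set at the same effect on reproduction, differed from carbendazim EC10 in 2 transcripts (0.193%), both lower with carbendazim. P5_D7_T7_1329838 differed by -1.42 (adjusted p = 0.0290) and P3_B9_T7_1329712 by -0.80 (adjusted p = 0.0470), and 124 transcripts had an unadjusted limma p under 0.05 (12%). Without any single one of these 6 arrays 0 were called. Between the 2 pesticides Ealb_Pest_P5_A2_T7_2175153 had a log2 difference of -1.08 that was not called (adjusted p = 0.102). Atrazine EC10 itself gave 0 calls against the solvent control (0%), with 31 transcripts at the unadjusted threshold (3%). The 2 pesticides lay on different slides.

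Against the water control, which held no acetone, 6 transcripts were called at carbendazim EC10 (0.58%), 3 higher and 3 lower, with P3_B9_T7_1329712 among the lower ones. Without water control replicate 1 the count was 13, and it was 0 without any other one of these arrays. The solvent control itself differed from the water control in 19 transcripts (1.84%), 17 higher and 2 lower in the solvent control. These 2 controls lay on different slides and were scanned on different days, so acetone, slide and day cannot be told apart here. Ealb_Pest_P5_A2_T7_2175153 was higher in the solvent control than in the water control by 1.08, which was close to the threshold (adjusted p = 0.0540).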

How the data were processed

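Total RNA of whole worms was labelled and hybridised to Agilent one-colour arrays of 60-mer probes, and the deposited intensity values, per the file headers, are spot signals that Feature Extraction 10.5.1.1 had background-subtracted and detrended within each array, without normalization between arrays. The deposited summary of values held the same signals (largest relative difference 0). Control spots and outlier spots (811 to 915 on the 6 arrays) were left out, spots were averaged per transcript, taken to log2 and centred on a common array median (shifts of -0.501 to 0.886). All 42 arrays entered a single limma 3.58.1 model in R 4.3.3 with a mean per group (14 in all; 28 residual and 3.94 prior degrees of freedom). Tests were 2-sided and moderated, and p-values were adjusted by Benjamini-Hochberg over the 1035 transcripts in each of 11 comparisons, 6 of them of carbendazim EC10; all p-values come from it unless the methods' t-test is named. Groups were taken from the labels, and 3 arrays per group limit the precision. A transcript was counted as well above background, or as saturated, on an array where most of its spots were so marked, and by "solvent" and "treated" the 2 groups of 3 are meant.

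Protein names came from a supplementary table of the study with 225 annotated transcripts, matched to array sequences by 12 log2 ratios (largest difference 0.0013, at least 0.037 for the next sequence). These changes are alike in both sources by construction, and the study chose the named transcripts on these arrays. No probe sequences were used. The 15 lists are patterns in these names. Named in the text, by rule, are the called transcripts, the 10 higher and 10 lower ones with the smallest p whose groups did not overlap, named transcripts at unadjusted p under 0.05, microtubule and intermediate filament proteins, those measured by qPCR, and up to 5 per direct comparison; other list members were chosen after their values were seen, and of the rule's transcripts near background only some are described. Members, lists and tests were chosen with earlier results of these data known. The alternatives were 75th percentile scaling, quantile normalization, normexp correction (offset 50), outlier spots kept, other averages of spots, dim transcripts left out, blocks for replicate number, slide and day, 2 groups alone, the methods' t-test, the deviating arrays left out, and each array left out. Saturated transcripts left out and the 2 combinations with the deviating arrays left out were added after the data were seen. The scripts were tested on simulated data. Figures were drawn with matplotlib 3.10.9 in Python 3.11.15, with numpy 2.4.6 and pandas 2.3.3, and data.table (version 1.17.8) read the files.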

Additional observations from a re-analysis of the deposited data

Results flagged for a closer look

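Carbendazim EC10 differed from carbendazim EC90 in 38 transcripts by a direct test. Among those with the smallest p or with a name in the text, the log2 difference of EC10 minus EC90 was -1.58 for aquaporin 1 (P5_F9_SP6_1372042), -1.54 for Contig107, which was not well above background at EC10, and -0.80 for the light chain regulatory transcript (P1_B12_T7_1328886). It was 2.38 for peptidase inhibitor 16 (Ealb_Met_P2_C11_SP6_2090313), 2.29 for P2_A9_T7_1328949, 1.56 for P5_E4_T7_1329817 and 0.89 for stathmin 1 (Ealb_Pest_P4_D3_SP6_2091840). Carbendazim EC10 differed from atrazine EC10 in 2 transcripts, with -0.80 for P3_B9_T7_1329712 and -1.42 for P5_D7_T7_1329838. The groups of each comparison lay on different slides.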

How the results depend on the processing

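The count of 2 calls against the solvent control became 44 without the 2 deviating dimethoate arrays, 23 with quantile normalization in addition, 6 with quantile normalization alone, 5 with the 2 groups alone, 1 with 75th percentile scaling, 1 with outlier spots kept, and 0 with the slide as a fixed block (5 at unadjusted limma p under 0.05) or with both the slide and the deviating arrays taken out (26). The methods' t-test gave 116 without adjustment and 7 after Benjamini-Hochberg adjustment, which shared 0 with the 2, and leaving out single arrays gave 1 to 3. With normexp, other spot averages, dim or saturated transcripts left out, the day as a fixed block or the slide as a random block, the count was 2 or 3. The 38 calls against EC90 became 72 without the deviating arrays, 0 with the slide block and 6 to 21 without single arrays. The 2 against atrazine EC10 became 37, 0 with the slide block, 0 with the 75th percentile, 1 with normexp and 0 to 0 without single arrays. The 6 against the water control became 31, 0 with the slide block, 0 with normexp and 0 to 13 without single arrays. Against EC20 and EC50 the count was 0 under all of these alternatives that were run. Scaling to the 75th percentile raised all changes by 0.106, and 74.1% of those at unadjusted p under 0.05 were then higher, against 43.2%; the share was 57.8% in the t-test and 60.3% without saturated transcripts. The cause was not tested for these changes beyond the spread and number of arrays that each alternative itself sets. Slide 8 was linked to the other slides only through 1 dimethoate EC20 array. The slide block therefore cannot tell slide from treatment where EC10 is compared with groups on other slides.

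Replicate numbers did not pair the samples, as same-numbered arrays of the 2 groups had residual correlations of -0.1, -0.0458 and -0.0901 and 0 of 3 correlated best with their own number. With the replicate number as a block the counts were 2 against the solvent control, 38 against EC90, 1 against atrazine EC10 and 10 against the water control.

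The sign of single transcripts turned mostly in those near background. With normexp this was so for EAC01087 (-0.14), Ealb_Met_P2_E8_SP6_2090292 (-0.32), tektin 2 (-0.22), EAC00204 (-0.0055), EAC00508 (-0.21), EAC00214 (-0.071), EAC00311 (-0.15), EAC00525 (-0.20), EAC00484 (-0.15), EAC00999 (-0.18), transketolase (-0.16), Ealb_Pest_P9_A6_SP6_2091027 (-0.078), Ealb_Met_P9_H1_SP6_2091174 (-0.15), Ealb_Met_P10_H7_SP6_2091216 (-0.11), Ealb_Pest_P3_C5_SP6_2091763 (-0.085) and P3_E11_T7_1329726 (-0.17). With outlier spots kept, heat shock protein 90 had -0.10 and transketolase -0.36. With the slide block, P5_D7_T7_1329838 had 0.24, tektin 2 -0.089, thymosin 0.20, rBAT -0.16, Ealb_Met_P2_E8_SP6_2090292 -0.13 and t-complex protein 1 beta 0.20, and without the deviating arrays as well rBAT had -0.15, thymosin 0.20, P5_D7_T7_1329838 0.10 and Ealb_Pest_P4_B3_SP6_2091838 0.14. Without single arrays Ealb_Met_P2_E8_SP6_2090292 had -0.094 (without treated replicate 1) to 0.26.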
